A study of Mus musculus with 8 samples.

Results

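The 10 genes described here belong to the p38, GSK3 and Snail signalling axis and were followed in 8 RNA-seq libraries, 4 labelled rFGF4 and 4 labelled PBS. They were taken from the deposited gene table by symbol, as a group chosen with earlier results of these data known, and all 10 were present among the 58304 genes kept. They are the p38 kinases MAPK14, MAPK13, MAPK12 and MAPK11, the p38-activating kinases MAP2K3 and MAP2K6, the kinases GSK3A and GSK3B, and the transcription factors SNAI1 and SNAI2. Of the 10, 8 reached the mean FPKM of 1 over the 8 libraries that was required for testing. FPKM scales a fragment count to gene length and sequencing depth. MAP2K6 and SNAI1 lay below it.

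Per the labels, skin within 2 mm of the wound was sampled on day 6 from C57BL/6 mice of 6 to 8 weeks, with wounds given recombinant fibroblast growth factor 4 (the rFGF4 group) or phosphate-buffered saline (the PBS group). No transgene or deletion is named, and the labels do not say whether a library came from one animal or a pool. The table itself was human: 58304 of 58304 gene identifiers were human Ensembl identifiers and 0 were mouse ones. The groups below are therefore those of the column names, no value is attributed to mouse wounds, and the sources used here do not name the cells behind it. Nothing in the labels says that the libraries came from separate cultures, animals or donors, so p-values measure the spread between these libraries, which may be technical.

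The p38 kinases are stress- and cytokine-activated MAP kinases. MAP2K3 and MAP2K6 switch them on by phosphorylating a threonine and a tyrosine in the activation loop. GSK3 alpha and GSK3 beta are kinases that are active in resting cells and are held back by growth factor signalling through AKT. In epithelial cells GSK3 beta phosphorylates the SNAI1 protein and marks it for destruction, and p38 can phosphorylate GSK3 beta. SNAI1 and SNAI2 are zinc finger repressors of E-cadherin and other junction genes, and in skin SNAI2 is known from basal keratinocytes and from wound margins. Most of this regulation acts on proteins, which RNA levels do not show.

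The libraries held 68889919 to 73074318 counts in the rFGF4 group and 62044121 to 73680756 in the PBS group. All 12 keratinocyte markers examined had a mean FPKM of at least 1, with summed FPKM of 3434 to 3630 in rFGF4 libraries and 3577 to 4019 in PBS libraries. None of the 7 dermal fibroblast, 5 endothelial, 5 skeletal muscle and 5 T cell markers did, and of the 7 myeloid markers CD68 alone did. The summed fibroblast markers stood at 0.411 to 0.511 FPKM in rFGF4 libraries and 0.776 to 0.864 FPKM in PBS libraries. This sum came mostly from COL1A1, COL3A1 and DCN. The averages of COL1A2 went the other way, at 0.0221 FPKM in rFGF4 and 0.0133 FPKM in PBS libraries, but its groups overlapped. It was counted 8, 26, 10 and 47 times in rFGF4 libraries and 10, 26, 12 and 0 times in PBS libraries. LUM and PDGFRA averaged lower in rFGF4 libraries, with 0 counts in some libraries of each group, and DPT was at 0. The summed endothelial markers stood at 1.6 to 2.56 FPKM in rFGF4 libraries and 0.805 to 1.68 FPKM in PBS libraries. This sum came mostly from VWF, at 0.982 to 1.59 FPKM in rFGF4 and 0.507 to 0.996 FPKM in PBS libraries. PECAM1, the next largest part, stood at 0.436 to 0.797 FPKM in rFGF4 and 0.158 to 0.430 FPKM in PBS libraries, without overlap. CLDN5 hardly differed, averaging 0.113 and 0.108 FPKM, and VWF, KDR and TEK overlapped between the groups. The part of these low-level differences in the results below was not tested. In bulk RNA, fewer cells of a type and less RNA per cell cannot be told apart. DUSP6, an ERK phosphatase induced by FGF signalling, served as a check of the treatment label and stood at 159 to 205 CPM (counts scaled to the library total with TMM factors) in rFGF4 libraries and 30.4 to 40.4 CPM in PBS libraries.

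By FPKM, which allows genes to be set beside each other, MAP2K3 stood highest in both groups. In rFGF4 libraries it averaged 22.7 ± 1.48 FPKM (SD, n = 4), followed by SNAI2 at 14.5 ± 4.41, GSK3B at 11.9 ± 1.13, GSK3A at 8.03 ± 0.254, MAPK14 at 6.89 ± 2.49, MAPK13 at 6.19 ± 0.273, MAPK12 at 2.80 ± 0.200, MAPK11 at 1.25 ± 0.211 and MAP2K6 at 0.115 ± 0.036 FPKM. In PBS libraries MAP2K3 averaged 19.0 ± 1.41 FPKM (SD, n = 4), then GSK3B at 13.0 ± 0.754 and SNAI2 at 13.0 ± 3.73, GSK3A at 7.54 ± 0.614, MAPK13 at 7.37 ± 0.610, MAPK14 at 6.64 ± 3.46, MAPK12 at 2.45 ± 0.287, MAPK11 at 1.66 ± 0.139 and MAP2K6 at 0.289 ± 0.038 FPKM. SNAI1 came last in both. Within each group the range of SNAI2 overlapped those of GSK3B, GSK3A and MAPK14, and the range of MAPK14 overlapped those of GSK3A and MAPK13. In PBS libraries MAPK13 also overlapped GSK3A and SNAI2. Among the 8 tested members, MAPK14 and SNAI2 had the widest spread relative to their means in both groups.

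**Figure D1:**
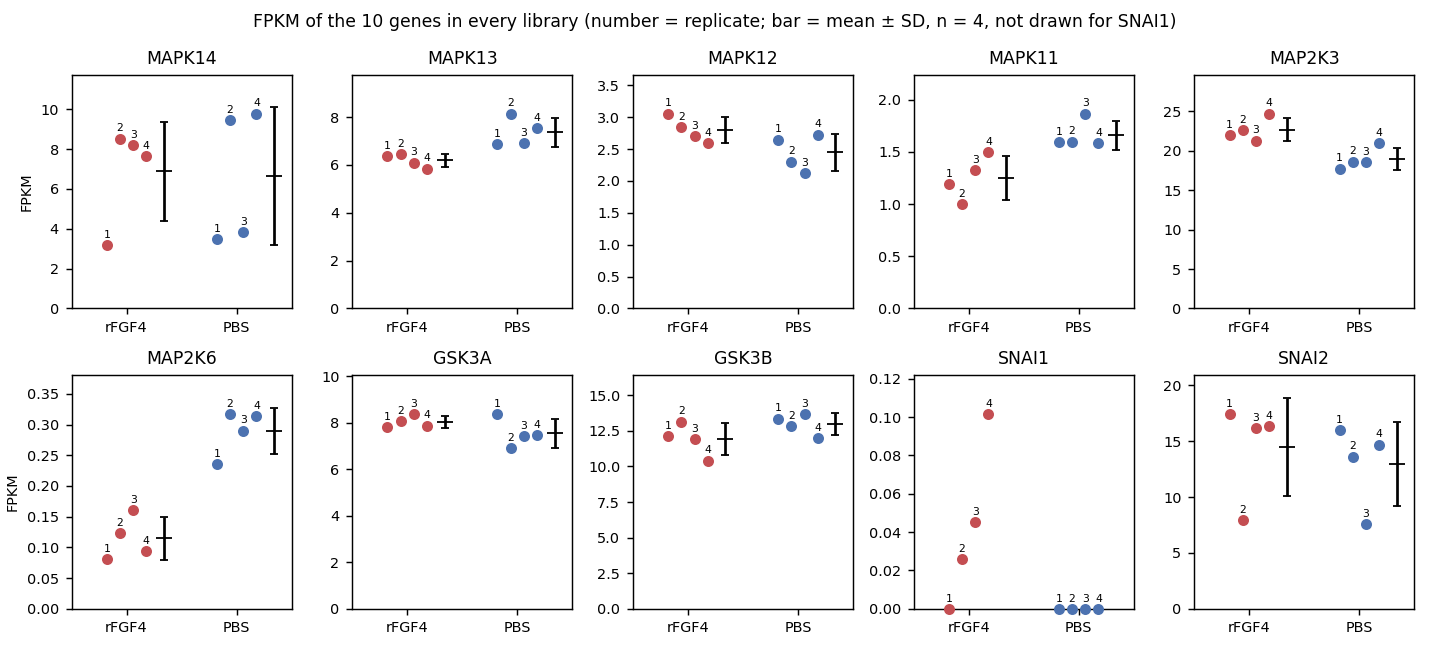
FPKM of each of the 10 genes (vertical axis, from 0, one scale per panel) in the 4 rFGF4 and the 4 PBS libraries, each point a library marked with its replicate number and each bar the mean ± SD. MAPK14 and SNAI2 fall into a high and a low level within both groups, MAP2K6 is lower in all 4 rFGF4 libraries, and SNAI1 is at 0 in 5 of the 8 libraries.

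None of the 8 tested members passed the test between rFGF4 and PBS libraries. The test was edgeR's quasi-likelihood test on the counts with Benjamini-Hochberg adjustment over 11536 genes and a threshold of 0.05. Over all tested genes 10% passed, 5.49% higher and 4.54% lower. At an unadjusted p under 0.05 the count was 3 of 8, namely MAP2K3, MAPK13 and MAPK11, beside 25.1% of all tested genes. These were also the 3 whose rFGF4 and PBS libraries did not overlap in CPM, as was so for 19.3% of all tested genes. DESeq2, which called 15.8% of all tested genes, called 2 of the 8, MAP2K3 and MAPK13. Limma on log2(FPKM + 1) called 10% of all tested genes and 0 of the 8. The median log2 fold change of the 8 was 0.09, beside 0.00 over all tested genes, and their median absolute log2 fold change was 0.20, beside 0.15.

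The activating kinases stood far apart in level and differed in direction. MAP2K3, the more abundant of the pair, lies on chromosome 17 (21284672 to 21315240, plus strand, coordinates as in the table, with the build not given in the sources). It stood at 22.0, 22.6, 21.3 and 24.7 FPKM in rFGF4 libraries 1 to 4, against 17.7, 18.6, 18.5 and 21.0 FPKM in PBS libraries 1 to 4. The highest PBS library lay just under the lowest rFGF4 library. The log2 fold change was 0.28 (SE 0.08, 95% interval 0.09 to 0.48, edgeR adjusted p = 0.0764), so it did not pass. It passed in 3 of 19 alternatives. Among them were the fit without PBS replicate 4, the highest PBS library (0.34, edgeR adjusted p = 0.0468), and DESeq2 (0.28, adjusted p = 0.0346). The highest adjusted p was 0.198, with edgeR without rFGF4 replicate 2 and PBS replicate 3 together.

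MAP2K6, the other dedicated p38 activator (chromosome 17, 69414697 to 69553865, plus strand), was lower in rFGF4 libraries. It was counted 118, 178, 223 and 137 times in rFGF4 libraries 1 to 4, against 347, 407, 358 and 408 times in PBS libraries 1 to 4. That is 1.62 to 3.34 CPM in rFGF4 libraries and 4.69 to 6.4 CPM in PBS libraries, with no overlap. The groups did not overlap for 19.3% of the genes tested after the filter, to which MAP2K6 does not belong. Its FPKM of 0.080 to 0.161 in rFGF4 libraries and 0.236 to 0.317 in PBS libraries kept it below the filter, although its counts were well above the 12 counts taken as the floor. A count of MAP2K6 was worth less FPKM than one of any other member: its counts per FPKM were 4.95 times those of SNAI2. With 1 fragment taken as 4 counts, its fragments would be 4 times fewer than its counts. The alternative with counts divided by 4 covered only the 8 tested members. In the edgeR fit without a filter, where 2.9% of 29674 genes passed and 1.38% were lower, MAP2K6 fell by 1.3 on the log2 scale (SE 0.23, 95% interval -1.82 to -0.78, adjusted p = 0.0187), a 2.46-fold lower level. It also passed with the filter set to a mean of 0.1 FPKM (edgeR adjusted p = 0.0136), where 552 of 17964 genes were lower. With filterByExpr it passed too (edgeR adjusted p = 0.0117), where 536 of 18173 genes were lower. DESeq2 without a filter also called it (adjusted p = 4.57e-06), and the share of all genes called there is not given here. The call ended without PBS replicate 2 (adjusted p = 0.0648), 3 (0.0537) or 4 (0.057), with log2 fold changes of -1.25, -1.3 and -1.24. As a share of the summed FPKM of the pair, MAP2K6 made up 0.364 to 0.750% in rFGF4 libraries and 1.31 to 1.68% in PBS libraries.

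**Figure D2:**
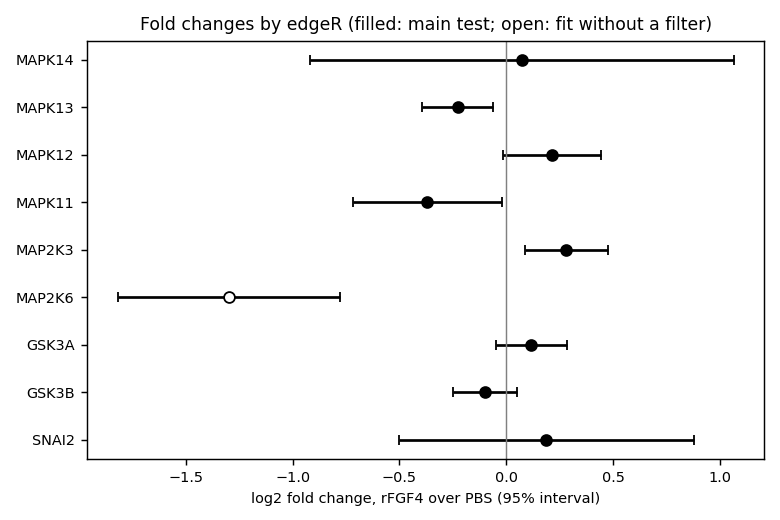
Log2 fold change, rFGF4 over PBS, with its 95% interval (horizontal axis) for 9 of the genes, filled where edgeR tested the gene after the filter on low values and open for MAP2K6, from the fit without a filter. The interval of MAP2K6 runs from -1.82 to -0.78, and those of MAPK14 and SNAI2 are the widest of the tested genes.

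Among the p38 kinases, MAPK13 and MAPK11 had lower values in rFGF4 libraries without passing the test. MAPK13, p38 delta, a form of epithelial cells and skin (chromosome 6, 36127809 to 36144524, plus strand), stood at 6.37, 6.45, 6.10 and 5.85 FPKM in rFGF4 libraries, against 6.87, 8.15, 6.90 and 7.54 FPKM in PBS libraries. No rFGF4 library reached the lowest PBS library. Its log2 fold change was -0.23 (SE 0.07, 95% interval -0.39 to -0.06, edgeR adjusted p = 0.0891), and with DESeq2 it was called (adjusted p = 0.0457). MAPK11, p38 beta (chromosome 22, 50263713 to 50270767, minus strand), was the lowest of the family, at 1.19, 1.0, 1.32 and 1.5 FPKM in rFGF4 libraries and 1.6, 1.6, 1.87 and 1.58 FPKM in PBS libraries. The log2 fold change was -0.37 (SE 0.15, 95% interval -0.72 to -0.02, edgeR adjusted p = 0.175).

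MAPK12, p38 gamma (chromosome 22, 50245450 to 50261708, minus strand), overlapped between the groups. It stood at 3.06, 2.85, 2.71 and 2.59 FPKM in rFGF4 libraries, against 2.65, 2.30, 2.12 and 2.73 FPKM in PBS libraries. The log2 fold change was 0.22 (SE 0.10, 95% interval -0.01 to 0.44, edgeR adjusted p = 0.227). Its span overlaps that of HDAC10, a deacetylase gene on the same strand, by 5936 bases, so the counts of both are uncertain where they share exons. HDAC10 averaged 864 counts and had a log2 fold change of 0.11 (SE 0.10).

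MAPK14 encodes p38 alpha, the most widely used p38 kinase (chromosome 6, 36027677 to 36111236, plus strand). The gene lies 16572 bases before MAPK13. It was found at a low and a high level in each group. It stood at 3.19 FPKM in rFGF4 replicate 1, with 8.53, 8.20 and 7.63 FPKM in rFGF4 replicates 2 to 4. In PBS libraries it stood at 3.47 and 3.83 FPKM in replicates 1 and 3, with 9.47 and 9.79 FPKM in replicates 2 and 4. The highest library was 3.10 times the lowest by CPM, and no library lay between 31.0 and 66.0 CPM. MAPK13, its neighbour, showed no such step. The log2 fold change of MAPK14 was 0.07 (SE 0.43, edgeR adjusted p = 0.944), and its 95% interval of -0.92 to 1.06 allows from 0.528 to 2.09 times the PBS level. This fold change turned negative when any one of rFGF4 replicates 2, 3 and 4 or PBS replicates 1 and 3 was left out, with a lowest value of -0.14.

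The make-up of the p38 family followed the step in MAPK14 in both groups. MAPK14 is part of the family sum, so the shares, ratios and sums below restate that step and are no further observation of it. MAPK14 took 43.4 to 45.3% of the summed p38 FPKM in rFGF4 replicates 2 to 4 and 23.1% in rFGF4 replicate 1. It took 44.0 and 45.2% in PBS replicates 2 and 4 and 23.8 and 26% in PBS replicates 1 and 3. MAPK13 was the leading p38 gene in the 3 libraries of low MAPK14, with MAPK14 at 0.502 times MAPK13 in rFGF4 replicate 1 and at 0.506 and 0.555 times in PBS replicates 1 and 3. MAPK14 led in the other 5, at 1.31 to 1.34 times MAPK13 in rFGF4 libraries and 1.16 and 1.3 times in PBS libraries. The summed p38 FPKM was 13.8 in rFGF4 replicate 1 and 17.6 to 18.8 in the other rFGF4 libraries, and 14.6 and 14.7 in PBS replicates 1 and 3 and 21.5 and 21.6 in PBS replicates 2 and 4.

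**Figure D3:**
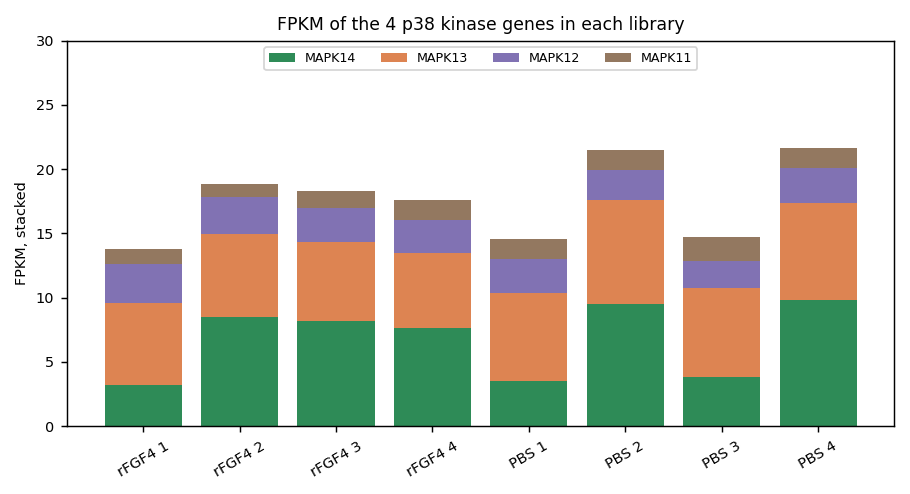
Stacked FPKM of MAPK14, MAPK13, MAPK12 and MAPK11 (vertical axis, from 0) in each of the 4 rFGF4 and 4 PBS libraries. The MAPK14 block is short in rFGF4 replicate 1 and in PBS replicates 1 and 3, where the stack totals 13.8, 14.6 and 14.7 FPKM.

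The 3 genes whose log2 CPM profiles over the 8 libraries lay closest to that of MAPK14 were PIP4K2C, a phosphatidylinositol phosphate kinase gene, CTNND1, which encodes p120-catenin, and RAB5B, a small GTPase gene of endosomes. Their root mean square differences from it were 0.11, 0.18 and 0.19 on the log2 scale, beside a median of 0.69 over all tested genes. Picked as the closest 3, they lie below that median by selection. PIP4K2C stood at 33.0 CPM in rFGF4 replicate 1 and 83.3 to 85.6 CPM in the other rFGF4 libraries, and at 30.3 and 31.4 CPM in PBS replicates 1 and 3 and 86.9 and 99.7 CPM in PBS replicates 2 and 4. The 3 libraries of low MAPK14 were read from MAPK14 itself, so MAPK14 separates them by choice. CTNND1 showed the split at a smaller size, at 270 to 353 CPM in these libraries and 547 to 729 CPM in the other 5. Of 11536 tested genes, 3 were more than 2 times lower in each of these 3 libraries than in each of the other 5, namely MAPK14, PIP4K2C and ZNF34, and 1, SNORD10, was more than 2 times higher. Counts per FPKM of a gene hardly varied between libraries, with an SD of 0.001 on the log2 scale for MAPK14 relative to GSK3B. Both deposited columns therefore carry nearly the same values on different scales, and the step in FPKM is no second observation of it.

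SNAI2, the one Snail family gene above the filter on low values (chromosome 8, 48917598 to 48921740, minus strand), also had low libraries in both groups. It stood at 17.5, 16.2 and 16.3 FPKM in rFGF4 replicates 1, 3 and 4 and 7.92 FPKM in rFGF4 replicate 2. In PBS libraries it stood at 16, 13.6 and 14.7 FPKM in replicates 1, 2 and 4 and 7.56 FPKM in replicate 3. The low libraries differ from those of MAPK14 except for PBS replicate 3. The log2 fold change was 0.19 (SE 0.30, 95% interval -0.50 to 0.88, edgeR adjusted p = 0.757), which allows from 0.705 to 1.84 times the PBS level. Without PBS replicate 3 it was -0.0035, and without rFGF4 replicate 2 it was 0.40. With both low libraries left out, the SE narrowed to 0.08 and the log2 fold change was 0.21 (edgeR adjusted p = 0.187).

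The genes with profiles closest to SNAI2 were the clone-named gene AL136298, ZNF384, a zinc finger gene, and the pseudogene MTCO2P2. Their root mean square differences were 0.20, 0.22 and 0.22, beside a median of 0.51, and they too lie below it by selection. ZNF384 stood at 35.5 CPM in rFGF4 replicate 2 and 55 to 58.3 CPM in the other rFGF4 libraries, and at 35.6 CPM in PBS replicate 3 and 47.5 to 56.0 CPM in the other PBS libraries. AL136298 and MTCO2P2 stood near 1 CPM or below. Of the 11536 tested genes, 331, or 2.87%, had a gap between neighbouring libraries of at least 0.8 on the log2 scale within both groups. That threshold was set after the values of MAPK14 (gaps of 1.32 in rFGF4 and 1.34 in PBS libraries) and SNAI2 (1.10 and 0.88) were seen. The largest such gap in any other tested member was 0.28, for MAPK11 in rFGF4 libraries.

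**Figure D4:**
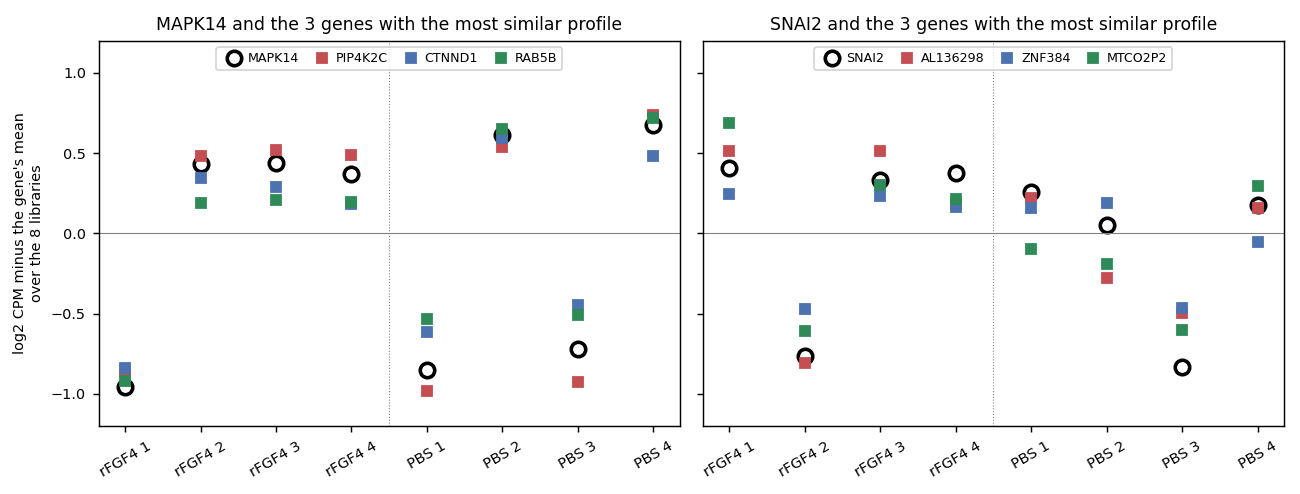
Log2 CPM minus the gene's own mean over the 8 libraries (vertical axis) for MAPK14 on the left and SNAI2 on the right, each with its 3 most similar genes, over 4 rFGF4 and 4 PBS libraries (horizontal axis). MAPK14 and PIP4K2C drop together in rFGF4 replicate 1 and PBS replicates 1 and 3, and SNAI2 and ZNF384 in rFGF4 replicate 2 and PBS replicate 3.

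SNAI1, the Snail gene best known as a repressor of E-cadherin (chromosome 20, 49982980 to 49988886, plus strand), was barely detected. It was counted 0, 4, 7 and 16 times in rFGF4 libraries 1 to 4 and 0 times in each of the 4 PBS libraries. With 1 fragment taken as 4 of the deposited counts, which was read from their pile-up at 4, 8 and 12 and not tested, the floor of 3 fragments is 12 counts, or 0.162 to 0.192 CPM, and a count of 0 allows a level up to it. Only rFGF4 replicate 4, at 0.233 CPM, exceeded the floor of its library, so no fold change is given. If each count stood for 1 fragment, the floor would be 3 counts and rFGF4 replicates 2 to 4 would exceed it. In the fit without a filter SNAI1 did not pass (edgeR adjusted p = 0.229). SNAI2 made up 99.4 to 100% of the summed FPKM of the pair in rFGF4 libraries and 100% in PBS libraries.

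The GSK3 genes varied least among the tested members, the highest library standing at 1.23 times the lowest for GSK3B and 1.24 times for GSK3A by CPM. GSK3B (chromosome 3, 119821323 to 120094417, minus strand), which encodes the beta kinase, stood at 12.1, 13.1, 11.9 and 10.4 FPKM in rFGF4 libraries and 13.4, 12.8, 13.7 and 12.0 FPKM in PBS libraries. GSK3A (chromosome 19, 42230190 to 42242602, minus strand), which encodes the alpha kinase, stood at 7.81, 8.05, 8.38 and 7.87 FPKM in rFGF4 libraries and 8.37, 6.90, 7.41 and 7.46 FPKM in PBS libraries. Both pairs of groups overlapped. The log2 fold changes were -0.10 for GSK3B (SE 0.07, 95% interval -0.25 to 0.05, edgeR adjusted p = 0.393) and 0.12 for GSK3A (SE 0.07, 95% interval -0.05 to 0.28, edgeR adjusted p = 0.372). For GSK3B the interval leaves 0.840 to 1.03 times the PBS level and for GSK3A 0.966 to 1.22 times. GSK3B exceeded GSK3A 1.32 to 1.63 times by FPKM in rFGF4 libraries and 1.6 to 1.86 times in PBS libraries.

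Upstream of p38, the listed genes included kinases above MAP2K3 and MAP2K6, adaptors, and other MAP2K genes that stand beside these. Of 20 listed genes 19 were tested, 1 fell and 18 did not pass. The list median was 0.01, beside 0.00 over all tested genes, of which 10% passed, 5.49% higher and 4.54% lower. MAP3K2, a MAP3K that feeds the stress and ERK5 cascades, fell to 38.5 ± 5.59 CPM in rFGF4 libraries, against 53.4 ± 4.41 CPM in PBS libraries (SD, n = 4; log2 fold change -0.47, SE 0.11, edgeR adjusted p = 0.0359). Its call ended with no filter, with limma on log2(FPKM + 1) or log2(FPKM + 0.1), and without rFGF4 replicate 1 or 3 or PBS replicate 1, 2 or 3. The JNK genes MAPK8 and MAPK9, of the sister stress cascade, did not pass, at log2 fold changes of -0.07 and -0.24.

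Downstream, 0 of the 16 tested p38 effector kinases and substrates passed (17 listed), beside 10% of all tested genes. The list median was -0.01, beside 0.00 over all tested genes. MAPKAPK2, the kinase through which p38 acts on mRNA stability and on HSPB1, stood at 106 ± 3.05 CPM in rFGF4 libraries and 102 ± 2.48 CPM in PBS libraries (SD, n = 4), a log2 fold change of 0.06 (SE 0.05). Of the phosphatases that act on p38, 1 of 6 tested (7 listed) fell and 5 did not pass. Of all tested genes 4.54% were lower. The list median was -0.28, beside 0.00 over all tested genes. DUSP10, a phosphatase of p38 and JNK, fell to 27.0 ± 4.26 CPM in rFGF4 libraries, against 39.9 ± 6.10 CPM in PBS libraries (SD, n = 4; log2 fold change -0.56, SE 0.14, edgeR adjusted p = 0.0422). This call ended under each other filter on low values and without rFGF4 replicate 1 or 3 or any one PBS replicate. DUSP1, which also acts on p38, stood at 2.70 ± 0.626 CPM in rFGF4 libraries and 3.41 ± 0.266 CPM in PBS libraries (SD, n = 4) and did not pass.

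Around GSK3, 0 of the 19 tested regulators and partners passed (23 listed), beside 10% of all tested genes. The list median was 0.00, as over all tested genes. CTNNB1, beta-catenin, a GSK3 substrate in the Wnt pathway, stood at 188 ± 12.4 CPM in rFGF4 libraries and 208 ± 5.07 CPM in PBS libraries (SD, n = 4). Its log2 fold change was -0.15 (SE 0.06, edgeR adjusted p = 0.162). PDPK1, the kinase that activates AKT, and APC, a scaffold of the beta-catenin destruction complex, were named after their values were seen. With CTDSP1, a phosphatase gene of the Snail stability list, they were the 3 of 104 tested list genes with a gap of at least 0.8 within both groups. PDPK1 was low in rFGF4 replicate 2 (15.8 CPM, with 47.8 to 60.6 CPM in the other rFGF4 libraries) and PBS replicate 2 (11.7 CPM, with 31.1 to 72.4 CPM in the others).

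The list of Snail stability factors and co-repressors had 1 of 21 tested members higher and 3 lower (25 listed), and 17 did not pass. Of all tested genes 5.49% were higher and 4.54% lower. The list median was -0.07, beside 0.00 over all tested genes. AJUBA, a LIM protein that bridges Snail proteins to their co-repressors, fell to 178 ± 6.01 CPM in rFGF4 libraries, against 252 ± 20.8 CPM in PBS libraries (SD, n = 4; log2 fold change -0.50, SE 0.07, edgeR adjusted p = 0.00335). RCOR1, the CoREST scaffold that works with the demethylase KDM1A, fell by 0.40 on the log2 scale (SE 0.08, edgeR adjusted p = 0.0155), a call that ended without PBS replicate 2. CTDSP2, of a phosphatase family that stabilises SNAI1 protein, fell by 0.28 (SE 0.05, edgeR adjusted p = 0.00948). PRMT5, an arginine methyltransferase that joins AJUBA at Snail target genes, rose by 0.35 (SE 0.08, edgeR adjusted p = 0.0333), and its call ended with no filter and without rFGF4 replicate 1 or 3 or any one PBS replicate.

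Genes that Snail proteins repress in other epithelia were split. Of 13 tested (14 listed) 1 rose, 2 fell and 10 did not pass, at a list median of -0.16. Over all tested genes 5.49% were higher and 4.54% lower, at a median of 0.00. CLDN1 and OCLN, tight junction genes, fell by 0.57 (SE 0.06, edgeR adjusted p = 0.000819) and 0.54 (SE 0.09, edgeR adjusted p = 0.0095), and the OCLN call ended without rFGF4 replicate 2 and PBS replicate 3 together (edgeR adjusted p = 0.054). KRT18, a simple epithelial keratin, rose by 0.74 (SE 0.11, edgeR adjusted p = 0.00449). OCLN stood at 12.4 ± 0.898 CPM in rFGF4 libraries and 18.1 ± 1.53 CPM in PBS libraries (SD, n = 4), and KRT18 at 421 ± 60.3 CPM in rFGF4 libraries and 251 ± 22.9 CPM in PBS libraries (SD, n = 4). CDH1, E-cadherin and the best known Snail target, did not pass (-0.25, SE 0.16, edgeR adjusted p = 0.38).

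Of the mesenchymal genes linked to Snail activity, 0 of 8 tested passed (13 listed), beside 10% of all tested genes. The list median was 0.25, beside 0.00 over all tested genes. VIM, vimentin, stood at 12.8, 12.7, 27.2 and 21.7 CPM in rFGF4 libraries and 9.23, 14.0, 8.05 and 6.67 CPM in PBS libraries, for a log2 fold change of 0.97 with SE 0.31 (edgeR adjusted p = 0.0943), and DESeq2 called it (adjusted p = 0.0139). ZEB1, another repressor of E-cadherin, stood at 0.140 ± 0.096 CPM in rFGF4 libraries and 0.294 ± 0.144 CPM in PBS libraries (SD, n = 4), near the floor, and was not tested.

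**Figure D5:**
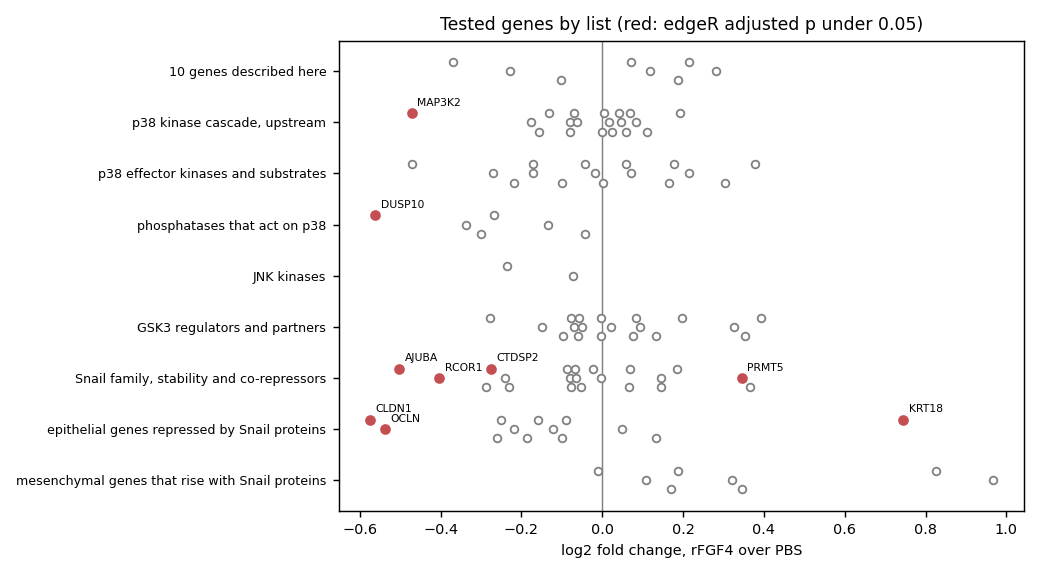
Log2 fold change, rFGF4 over PBS (horizontal axis), of every tested gene of the 10 described here and of the 8 lists round them, one point a gene, red and named where the edgeR adjusted p was under 0.05. The 8 tested points of the top line are all open, and 9 of 104 list genes are red, 2 of them to the right of 0. Of all tested genes 10% passed.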

How the data were processed

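Gene-level RNA-seq values were analysed for 8 libraries, 4 labelled rFGF4 and 4 labelled PBS, matched by the column names (FGF4 and C, with replicate numbers). Per the submitters' processing notes, HISAT2 2.0 and StringTie 1.3.0 were used. The sources used here do not give the role of each, the genome build, the annotation or the use of strand. The authors deposited FPKM, with 0.0001 in place of 0 (read here as 0), and whole-number counts, per the file headers. These deposited counts behave as estimated counts, with pile-ups at 4, 8 and 12 (9781 entries at 4, with 3485 at 3 and 1977 at 5, and 4938 at 8, with 2236 at 7 and 1396 at 9). Values of 1 (5170 entries) and 2 (4545) were also common. From the pile-ups 1 fragment was taken as 4 counts and the floor as 3 fragments, or 12 counts, an assumption that was not tested.

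Of 58825 genes, 521 were left out (those of the Y chromosome, with XIST and TSIX). The counts were tested with edgeR 4.0.16 in R 4.3.3 (TMM scaling, quasi-likelihood test, two-sided, Benjamini-Hochberg adjustment, threshold 0.05) on the 11536 genes whose FPKM averaged at least 1. Genes below that filter have values from the same fit on all genes with any count. SE and 95% intervals come from the quasi-likelihood statistic. Levels in CPM are scaled to the total over tested genes with TMM factors. DESeq2 1.42.0, limma 3.58.1, other scalings and filters, left-out libraries and a replicate block were run as alternatives, and the method was tested on simulated counts.

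The 10 genes and the 8 lists were chosen with earlier results of these data known. The genes named are the 10, up to 4 called list members in each direction by smallest p, CDH1, VIM, MAPKAPK2, DUSP1, CTNNB1, ZEB1 and DUSP6 in any case, and, for tested members whose highest library was at least 2 times the lowest, the 3 genes of most similar profile. MAPK8, MAPK9, HDAC10, PDPK1, APC, CTDSP1, SNAI3, TAB2, ZNF34 and SNORD10 were named outside this rule, after their values were seen. The reference sequences at hand are of mouse, so no sequence is shown for these human genes.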

Additional observations from a re-analysis of the deposited data

Results flagged for a closer look

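In groups of 4 libraries, 1 library stood apart from the other 3 in 7 of 48 groups examined. This was judged by Dixon's ratio of the gap to the range, against its 95% critical value. The nominal rate is about 1 in 20 groups. The share flagged over all tested genes is not given here, so no excess particular to these genes is read from the count. SNAI2 in rFGF4 replicate 2 stood at 31.7 CPM, with 67.7 to 71.2 CPM in the other rFGF4 libraries (ratio 0.911). MAPK14 in rFGF4 replicate 1 stood at 26.4 CPM, with 66.0 to 69.1 CPM in the other rFGF4 libraries (ratio 0.927). MAP2K3 in rFGF4 replicate 4 stood at 118 CPM, with 99.0 to 101 CPM in the others (ratio 0.905). MAPK11 in PBS replicate 3 stood at 5.91 CPM, with 5.10 to 5.19 CPM in the other PBS libraries (ratio 0.888). DUSP10 in PBS replicate 4 stood at 49.0 CPM, with 35.8 to 37.7 CPM in the others (ratio 0.86). PRMT5 was flagged in both groups. It stood at 179 CPM in rFGF4 replicate 3, with 143 to 147 CPM in the other rFGF4 libraries (ratio 0.887), and at 113 CPM in PBS replicate 2, with 123 to 125 CPM in the other PBS libraries (ratio 0.884).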

How the results depend on the processing

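Over all tested genes 633 were higher and 524 lower. DESeq2 called 982 and 846. With 1 library left out the counts ran from 326 to 622 higher and from 275 to 547 lower, moving by over 1.5 times without rFGF4 replicate 1 or 3 or PBS replicate 1 or 2 in both directions and without PBS replicate 3 for higher genes. Without rFGF4 replicate 2 and PBS replicate 3 together they were 356 and 265, and the calls of MAP3K2, DUSP10, PRMT5 and OCLN ended. The count of the 10 genes called was 0 and became 2 with DESeq2, 1 with no filter, 1 with a mean FPKM of at least 0.1 and 1 with filterByExpr (MAP2K6 each time), and 0 to 1 with 1 library left out. Dropping 1 library gave log2 fold changes of -0.0035 to 0.3996 for SNAI2 and of -0.1438 to 0.3295 for MAPK14, whose negative values were -0.025, -0.0278 and -0.0059 without rFGF4 replicates 2, 3 and 4 and -0.1438 and -0.1233 without PBS replicates 1 and 3. Without rFGF4 replicate 2 and PBS replicate 3 together MAPK14 had -0.2233. The other 6 tested members kept their direction under all 19 alternatives, as did MAP2K6 wherever it was tested. MAP2K6 was also fitted without a filter with each library left out (-1.5154 to -1.154), alternatives chosen after seeing the data. Same-numbered libraries had correlations of their deviations from the group means of 0.12, 0.06, -0.02 and 0.27. Differently numbered libraries had -0.19 to 0.08. These values do not settle whether the numbers pair the libraries. With the replicate block the counts were 561 higher, 452 lower and 1 of the 10 genes, MAP2K3 (0.28, edgeR adjusted p = 0.0268), and MAP2K6 without a filter had -1.34 (edgeR adjusted p = 0.0478). The cause of these changes was not tested. Depth limits SNAI1 and ZEB1, at or near the floor.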

Other observations

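SNAI3, the third Snail family gene, lay below the filter on low values and was examined after its values were seen. It stood at 0.399, 0.385, 0.269 and 0.480 CPM in rFGF4 libraries and 0.703, 1.37, 0.846 and 1.22 CPM in PBS libraries, with no overlap and all above the floor of 0.162 to 0.192 CPM. The groups did not overlap for 19.3% of the genes tested after the filter, to which SNAI3 does not belong. In the edgeR fit without a filter, where 2.9% of 29674 genes passed, its log2 fold change was -1.42 (SE 0.32, adjusted p = 0.0499). With the filter set to a mean of 0.1 FPKM the edgeR adjusted p was 0.027. The antisense gene SNAI3-AS1 was counted too, and without stated use of strand the counts of both are uncertain where they overlap.

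TAB2, an adaptor that links the kinase MAP3K7 to its activators upstream of p38, was low in the libraries where MAPK14 was low, and was picked out after its values were seen. It stood at 43.1 CPM in rFGF4 replicate 1 and 62.2 to 72.9 CPM in the other rFGF4 libraries, and at 46.3 and 44.5 CPM in PBS replicates 1 and 3 and 69.8 and 69.6 CPM in PBS replicates 2 and 4.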
